A study of Mus musculus with 6 samples.

Results

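The genes described here encode the cell surface receptors that bind the constant (Fc) part of the antibodies IgE and IgG, with the adaptor Lat2. The 8 members were taken by gene symbol from the 29872 genes of the deposited table: Fcer1a, Ms4a2, Fcer1g, Fcgr1, Fcgr3, Fcgr4, Fcgr2b and Lat2. Their levels in 3 libraries labelled CML, for chronic myeloid leukaemia, were compared with those in 3 wild-type libraries, labelled WT. Every library came from C57BL/6 mouse bone marrow. The cells were untreated, had the sort profile Lin-, Sca1+, cKit+ and CD150+ of primitive blood-forming cells, and were grown ex vivo. The sources used here give neither the genetic model behind the CML label, nor the age of the mice, nor the lineage antibodies. Whether replicates are different animals or different cultures is not labelled, so the p-values measure only the spread among these 6 libraries, and that spread may be technical.

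The high-affinity IgE receptor FceRI is built from an alpha chain that binds IgE (Fcer1a), a beta chain that amplifies the signal (Ms4a2) and a dimer of the common gamma chain (Fcer1g). The beta and gamma chains carry immunoreceptor tyrosine-based activation motifs (ITAMs), which are phosphorylated by the kinase Lyn and then recruit the kinase Syk. The gamma chain also carries the signal of the activating IgG receptors Fcgr1, Fcgr3 and Fcgr4. Fcgr2b is the inhibitory IgG receptor, with an inhibitory motif (ITIM) in its own tail that recruits the phosphatase SHIP1. Lat2, also called NTAL, is a membrane adaptor phosphorylated after FceRI is engaged. In mice FceRI is the hallmark of mast cells and basophils, and Fcgr2b and Fcgr3 are also found on macrophages and other myeloid cells.

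Library totals ran from 13323469 to 17926847 counts. Levels are given as CPM, counts per 1000000 counts after TMM scaling of the library sizes, a method that sets the bulk of genes level between libraries. Stem cell markers were present in each group: the summed level of the 13 listed genes was 1559 to 1822 CPM in CML and 1666 to 1797 CPM in WT, and none was at 0. Of the 12 of these that were tested, 0 were higher and 3 lower in CML, and 1 was lower without WT replicate 2. Of all 16221 genes tested, 2820 passed an adjusted p under 0.05 (17.4%, edgeR quasi-likelihood test with Benjamini-Hochberg adjustment), 1652 of them higher in CML (10.2%).

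Of the 8 members, 7 had enough counts to be tested. Fcer1a, Fcgr3 and Fcgr2b rose in CML, none fell, and Ms4a2, Fcer1g, Fcgr1 and Lat2 did not pass. This is 3 of 7 tested members, against 17.4% of all tested genes. The DESeq2 Wald test, another count model, called 4 members, adding Ms4a2, where it called 17.3% of the genes it tested. For 4 of the 7 tested members no CML library fell within the WT range or the reverse, a property of 35.0% of all tested genes. The median log2 fold change of the 7 tested members was 2.12, beside -0.004 over all tested genes. The members were chosen as a family and not for their values, but with earlier results of these data known.

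The 4 members whose groups did not overlap are shown by the sequence just before their start sites, since the transcription factors GATA1, GATA2 and PU.1 are known to act at promoters of FceRI chains. Each stretch holds the 250 bases before the RefSeq start (build GRCm38.p6), 5′ to 3′ on the strand of the gene, which is the minus strand for all 4. Capitals mark GATA read on either strand (GATA or TATC). They lie at chr1:173227230-173227479 (Fcer1a), chr19:11623720-11623969 (Ms4a2), chr1:171059404-171059653 (Fcgr3, the more upstream of 2 starts) and chr1:170976072-170976321 (Fcgr2b).
Fcer1a: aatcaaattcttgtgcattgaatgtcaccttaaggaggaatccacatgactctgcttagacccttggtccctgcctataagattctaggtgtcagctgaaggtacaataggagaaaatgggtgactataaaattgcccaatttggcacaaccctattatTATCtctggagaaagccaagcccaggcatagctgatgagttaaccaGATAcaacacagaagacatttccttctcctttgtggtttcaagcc
Ms4a2: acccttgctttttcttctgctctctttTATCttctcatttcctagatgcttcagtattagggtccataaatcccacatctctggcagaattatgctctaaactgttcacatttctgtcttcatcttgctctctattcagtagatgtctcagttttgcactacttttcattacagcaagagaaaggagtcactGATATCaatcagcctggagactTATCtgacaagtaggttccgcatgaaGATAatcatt
Fcgr3: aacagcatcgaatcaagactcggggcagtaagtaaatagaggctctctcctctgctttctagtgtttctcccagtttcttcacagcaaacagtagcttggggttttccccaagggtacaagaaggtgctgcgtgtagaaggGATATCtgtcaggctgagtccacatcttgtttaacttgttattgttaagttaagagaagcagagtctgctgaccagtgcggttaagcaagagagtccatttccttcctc
Fcgr2b: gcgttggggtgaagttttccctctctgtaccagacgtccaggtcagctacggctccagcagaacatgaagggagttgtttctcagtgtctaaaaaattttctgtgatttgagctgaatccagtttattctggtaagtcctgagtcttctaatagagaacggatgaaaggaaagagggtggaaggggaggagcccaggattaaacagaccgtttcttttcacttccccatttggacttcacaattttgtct

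Counted on both strands, GATA occurred 5 times before Ms4a2, 2 times before Fcer1a, 2 times before Fcgr3 and 0 times before Fcgr2b. Before the members whose groups overlapped it occurred 1 time (Fcer1g), 1 time (Fcgr1) and 3 times (Fcgr4). The sequence GATATC reads the same on either strand and was counted once for each. Over the 32841 RefSeq windows of the same length, 53.6% held at least 1 GATA, 24.2% at least 2 and 1.2% at least 5. The core GGAA of PU.1 and its relatives (GGAA or TTCC) occurred 2 times before Fcer1a, 2 before Ms4a2, 3 before Fcgr3 and 4 before Fcgr2b. It occurred 5 times before Fcer1g, 6 before Fcgr1 and 5 before Fcgr4, more than before any of the 4 shown, and 76.8% of all windows held at least 2. Promoter windows matched 7 of the 8 members. These matches describe letters only and show no binding.

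Among the chains of the IgE receptor, the alpha chain differed most. Fcer1a (chromosome 1, 173221284 to 173227214, minus strand, GRCm38) was at 168, 805 and 437 CPM in CML replicates 1, 2 and 3, and at 66.8, 32.1 and 47.8 CPM in WT replicates 1, 2 and 3. Every CML library lay above every WT library, and CML replicate 2 was the highest and CML replicate 1 the lowest of its group. The means were 470.0 ± 320 CPM and 48.9 ± 17.4 CPM (SD, n = 3), a log2 fold change of 3.26 (SE 0.71, 9.61-fold, adjusted p = 0.0460, edgeR). The call rested on each of 5 libraries. Leaving out CML replicate 2 gave an adjusted p of 0.0829 and leaving out CML replicate 3 gave 0.119. Leaving out WT replicates 1, 2 and 3 in turn gave 0.146, 0.169 and 0.109. Without CML replicate 1 it was 0.00308, and with no filter on low counts it was 0.0804. The log2 fold change stayed between 2.63 and 3.66 over the 12 alternatives tried, so the direction held in each of them.

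In bulk RNA, more cells of a type and more RNA per cell cannot be told apart, and this holds for each result here. Markers of mast cells were higher as well. Calls on this and the other cell type lists stand beside 10.2% of all tested genes higher and 17.4% called in either direction. Of 14 tested mast cell markers 10 were higher in CML and 0 lower, and their summed level was 2462, 7323 and 4975 CPM in CML replicates 1, 2 and 3, against 554 to 678 CPM in WT. Hdc, the enzyme that makes histamine, rose by 5.88 on the log2 scale and Tpsab1, a mast cell tryptase, by 4.14. By the summed level, the lowest and the highest CML library were those of Fcer1a. This order was not particular to these markers. It also held for genes that did not pass, such as Pik3cg (142, 217 and 204 CPM in CML replicates 1, 2 and 3) and Snap23 (104, 151 and 117 CPM). How many of all genes share it was not counted. The number of these markers that changed was 5 without WT replicate 1 and 6 without WT replicate 2. Mcpt1 and Mcpt2, mast cell protease genes, were at 0 in all WT libraries, and Mcpt2 did not pass (adjusted p = 0.0599, edgeR). Other mast cell protease genes were present in WT, with Cpa3 at 55.4 to 129 CPM and Cma1 at 1.89 to 9.34 CPM. Of 7 tested basophil markers 2 were higher and 0 lower, with a summed level of 467 to 1593 CPM in CML and 93.4 to 233 CPM in WT. The number of basophil markers that changed was 0 with CML replicate 2 or 3 or WT replicate 1 or 3 left out, 1 without WT replicate 2 and 4 without CML replicate 1. The part that such cells play in the receptor values was not tested.

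The beta chain gene Ms4a2 (chromosome 19, 11615523 to 11623719, minus strand) was at 54.4, 212 and 110 CPM in CML replicates 1, 2 and 3, and at 39.1, 17 and 30.2 CPM in WT. The groups did not overlap, and the order of the CML libraries was that of Fcer1a. The log2 fold change was 2.12 (SE 0.63), which did not pass (adjusted p = 0.0951, edgeR). It passed with the DESeq2 Wald test (adjusted p = 0.00747) and without CML replicate 1 (adjusted p = 0.0257, edgeR).

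The common gamma chain gene Fcer1g (chromosome 1, 171229572 to 171234365, minus strand) was at 19.0, 45.5 and 29.4 CPM in CML replicates 1, 2 and 3, and at 25.5, 17.7 and 18.1 CPM in WT. CML replicate 1 lay inside the WT range, while CML replicates 2 and 3 lay above it. The log2 fold change of 0.61 did not pass (SE 0.31, adjusted p = 0.235, edgeR). Without CML replicate 1 it was 0.87 (adjusted p = 0.0147).

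**Figure D1:**
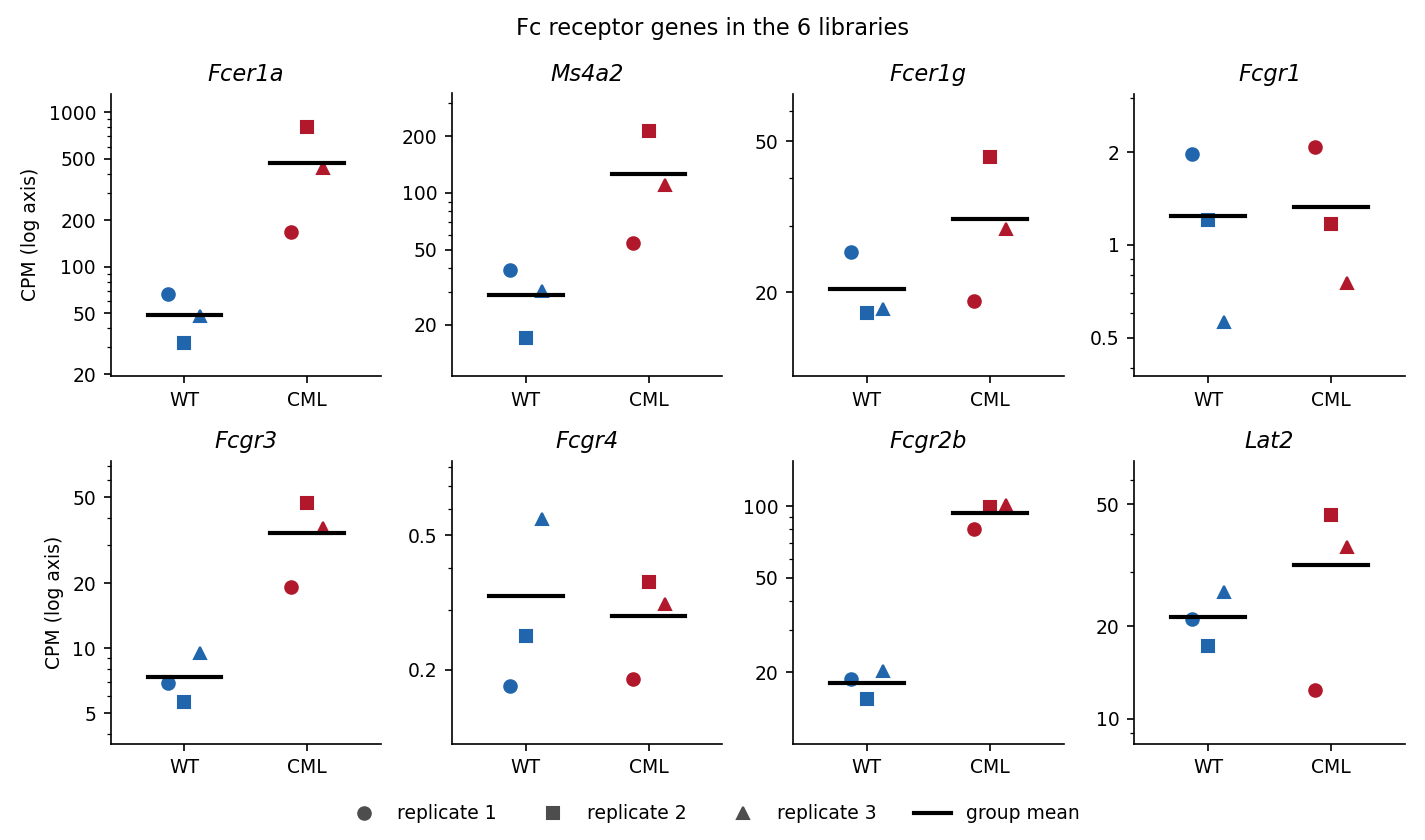
Level of each of the 8 members in CPM (log axis, its range set per panel) in the WT and CML libraries, with a marker shape per replicate and a black line at the group mean. Fcer1a, Ms4a2, Fcgr3 and Fcgr2b show no overlap between the groups, and for Fcer1a, Ms4a2, Fcer1g, Fcgr3 and Lat2 CML replicate 1 is the lowest and CML replicate 2 the highest of the CML libraries.

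Ratios between the chains were formed within each library from counts not divided by length, so they compare the groups and not the levels of the genes. Per library, Fcer1a counts were 8.86, 17.7 and 14.9 times those of Fcer1g in CML replicates 1, 2 and 3, and 2.62, 1.81 and 2.63 times in WT. The mean log2 ratio was 3.73 ± 0.52 in CML and 1.21 ± 0.31 in WT (SD, n = 3), a difference of 2.51. Ms4a2 counts were 0.324, 0.263 and 0.251 times those of Fcer1a in CML and 0.586, 0.530 and 0.633 times in WT, a difference of -1.07 on the log2 scale. Neither ratio overlapped between the groups. An exact two-sided permutation test gave p = 0.1 for each ratio, the smallest that 3 libraries against 3 allow, and 0.15 after adjustment over the 3 ratios compared.

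**Figure D2:**
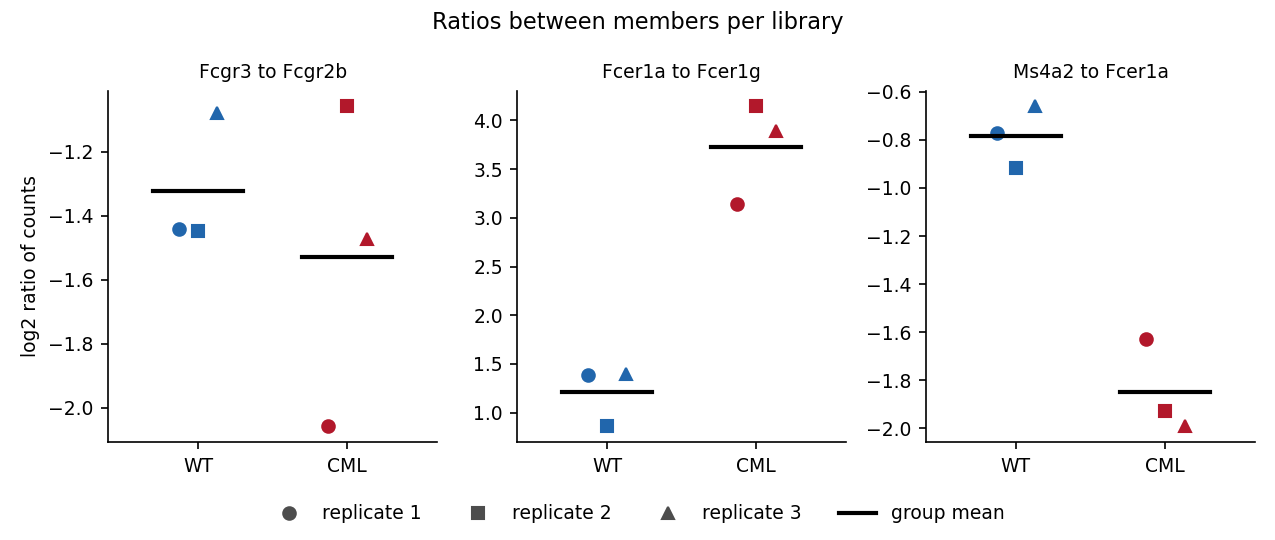
Log2 ratio of the counts of 2 members in each library, with a marker shape per replicate and a black line at the group mean; each panel has its own range. The ratio of Fcer1a to Fcer1g is higher and that of Ms4a2 to Fcer1a lower in all 3 CML libraries than in any WT library, while the ratio of Fcgr3 to Fcgr2b overlaps.

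Among the IgG receptors, the inhibitory receptor showed the steadiest difference. Fcgr2b (chromosome 1, 170958617 to 170976547, minus strand) was at 80.4, 98.7 and 101 CPM in CML replicates 1, 2 and 3, and at 18.7, 15.4 and 20.2 CPM in WT. The libraries of a group lay close together, with a coefficient of variation of 12% in CML, where that of Fcer1a was 68.0%. The means were 93.2 ± 11.1 CPM and 18.1 ± 2.44 CPM (SD, n = 3), a log2 fold change of 2.36 (SE 0.14, 5.15-fold, adjusted p = 2.85e-07, edgeR). Fcgr2b passed under each of the 12 alternatives tried, with a log2 fold change from 2.26 to 2.46.

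The activating receptor Fcgr3 (chromosome 1, 171051174 to 171064935, minus strand) was at 19.3, 47.3 and 36.2 CPM in CML replicates 1, 2 and 3, and at 6.87, 5.62 and 9.53 CPM in WT. Every CML library lay above every WT library. The log2 fold change was 2.22 (SE 0.35, 4.66-fold, adjusted p = 0.00558, edgeR). The call was lost without WT replicate 1 (adjusted p = 0.0821) and held in the other 11 alternatives.

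The remaining activating receptors were scarce. Fcgr1 (chromosome 3, 96282909 to 96293969, minus strand) had 33, 16 and 12 counts in CML replicates 1, 2 and 3, and 33, 19 and 9 in WT, or 61 in each group. Its groups overlapped almost wholly. The log2 fold change was 0.09 (SE 0.48, adjusted p = 0.922, edgeR), and the ratio of summed counts, CML to WT, was 1.07 (exact 95% binomial interval 0.735 to 1.55). Fcgr4 (chromosome 1, 171018920 to 171029761, plus strand) had 3, 5 and 5 counts in CML and 3, 4 and 9 in WT, too few to be tested. Its ratio of summed counts was 0.866 (interval 0.383 to 1.92). These intervals cover counting error only and leave out the spread between libraries.

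Monocyte and macrophage markers, other cells that carry IgG receptors, were higher in 5 of 9 tested genes and lower in 0. Their summed level was 362 to 434 CPM in CML and 239 to 302 CPM in WT, and C1qa and C1qc were at 0 in all WT libraries. With no filter on low counts, all 16 of these markers were tested and the number higher was again 5. Of 10 tested neutrophil markers 0 were higher and 1 lower (215 to 328 CPM in the CML libraries, 190 to 335 CPM in the WT libraries), with Camp and Ly6g at 0 in WT. With no filter on low counts, all 16 neutrophil markers were tested, and 0 were higher and 2 lower, so neither Camp nor Ly6g was called higher. Of 6 tested dendritic cell markers 2 were higher and 0 lower (81.3 to 173 CPM and 61.8 to 98.5 CPM). The number of neutrophil markers that changed was 3 without WT replicate 3. That of dendritic cell markers was 4 without CML replicate 1 and 1 with any of CML replicate 3 and WT replicates 1 and 3 left out. None of the 8 B cell markers had enough counts to be tested, and their sum was at most 2.38 CPM in any library. Of the T and NK cell markers 1 of 2 tested was higher (51.9 to 77.7 CPM in CML libraries, 50.2 to 66.5 CPM in WT libraries). Ncr1 was at 0 in all WT libraries and had 0, 2 and 6 counts in CML replicates 1, 2 and 3, too few to be tested. The 2 tested eosinophil markers did not pass (8.79 to 36.4 CPM and 15.3 to 19.2 CPM). The part of these cells in the IgG receptor values was not tested.

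The ratio of the activating Fcgr3 to the inhibitory Fcgr2b did not separate the groups. In counts not divided by length, the ratio was 0.240, 0.480 and 0.361 in CML replicates 1, 2 and 3, and 0.368, 0.366 and 0.473 in WT. It does not say which gene was more abundant. Per kb of exon, Fcgr3 averaged 4.23 and Fcgr2b 3.13 CPM in WT, and 19.8 and 16.1 CPM in CML. The difference in mean log2 ratio was -0.21 (p = 0.5, exact two-sided permutation test, 0.5 after adjustment over the 3 ratios). Without CML replicate 1 the sign turned, to 0.06.

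Reads of these neighbours on chromosome 1 can be hard to tell apart. Of the distinct stretches of 50 bases in the annotated transcripts of Fcgr3 (GENCODE M21), 166 also occurred in transcripts of Fcgr2b, 9.58% of those of Fcgr3 and 2.92% of those of Fcgr2b. The longest identical run is shown because reads inside it fit either gene. It is 129 bases long, lies in the coding sequence of both genes and spans 2 exons in each, between 171054167 and 171057792 in Fcgr3 and between 170966674 and 170968081 in Fcgr2b (chromosome 1, minus strand, GRCm38).
Fcgr3 and Fcgr2b: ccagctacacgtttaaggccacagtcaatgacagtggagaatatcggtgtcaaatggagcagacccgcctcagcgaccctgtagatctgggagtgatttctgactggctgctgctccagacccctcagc

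The sources used here do not give how the authors divided reads shared between genes, so the values of Fcgr3 and Fcgr2b and their ratio carry that uncertainty. Fcgr2b shared 6.95% of its stretches with any other gene, Fcgr3 included. Among them were 107 shared with Gm38204, an overlapping antisense gene, and 98 shared with Cplx2. Fcer1a, Fcer1g, Fcgr1 and Fcgr4 shared 0 stretches of 50 bases with the transcripts of any other gene, and Ms4a2 shared 2.1% of its stretches, all with Ms4a4b.

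The adaptor gene Lat2 (chromosome 5, 134600022 to 134615025, minus strand) was at 12.4, 46.2 and 36.2 CPM in CML replicates 1, 2 and 3, and at 21.2, 17.2 and 25.9 CPM in WT. CML replicate 1 lay below all WT libraries and the other CML libraries above them. The log2 fold change of 0.56 did not pass (SE 0.50, adjusted p = 0.512, edgeR), and it was 0.94 without CML replicate 1 (adjusted p = 0.00241). Lat2 shares 952 exonic bases with Rfc2, a replication factor gene on the opposite strand, and 31.9% of its 50-base stretches. Rfc2 was more abundant, with 130 ± 7.48 CPM in the CML libraries against 103 ± 11.8 CPM in the WT libraries, and did not pass (adjusted p = 0.0697, edgeR, log2 fold change 0.33, SE 0.12). The strand setting of the counting is not given, so reads of Lat2 and Rfc2 may not be told apart.

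**Figure D3:**
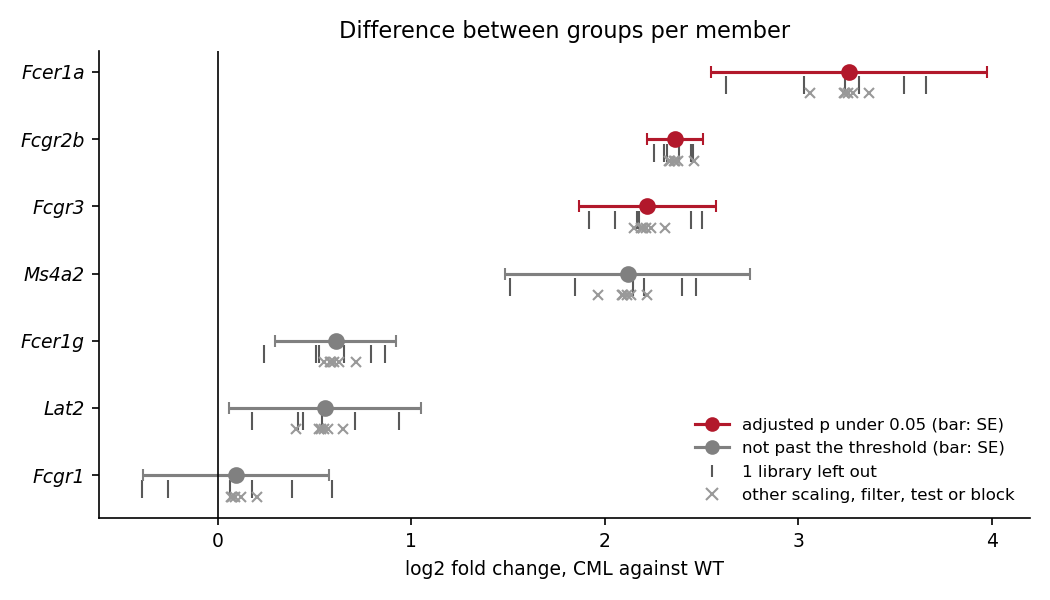
Log2 fold change of the 7 tested members, CML against WT, with its standard error (red where the adjusted p is under 0.05), and below each the values with 1 library left out (ticks) and under the other scalings, filters, test and block (crosses). Fcgr2b has the shortest bar and ranges from 2.26 to 2.46 over the alternatives, while Fcgr1 falls on both sides of 0.

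Levels of different genes were compared per length, as CPM per kb of annotated exon. In WT the order was Fcer1a (49.0 ± 17.4), Fcer1g (23.4 ± 5.03), Ms4a2 (10.2 ± 3.96), Lat2 (8.18 ± 1.66), Fcgr3 (4.23 ± 1.15), Fcgr2b (3.13 ± 0.42), Fcgr1 (0.48 ± 0.27) and Fcgr4 (0.26 ± 0.16 CPM per kb, SD, n = 3). Of these neighbours Ms4a2 and Lat2, Fcgr3 and Fcgr2b, and Fcgr1 and Fcgr4 overlapped between libraries. In CML the order was Fcer1a (471 ± 320), Ms4a2 (44.5 ± 28.3), Fcer1g (35.8 ± 15.3), Fcgr3 (19.8 ± 8.14), Fcgr2b (16.1 ± 1.93), Lat2 (12.1 ± 6.61), Fcgr1 (0.51 ± 0.26) and Fcgr4 (0.23 ± 0.07 CPM per kb). There the 5 genes from Ms4a2 to Lat2 overlapped with their neighbours in the order, while Fcer1a stood above all others. By CPM per kb, Fcer1a held rank 241, 53 and 101 among the 15805 tested genes with a matched length in CML replicates 1, 2 and 3, and rank 790, 1772 and 1107 in WT. Exon length was the union over all annotated transcripts of a gene, so genes with long rarely used exons are set too low by this measure.

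**Figure D4:**
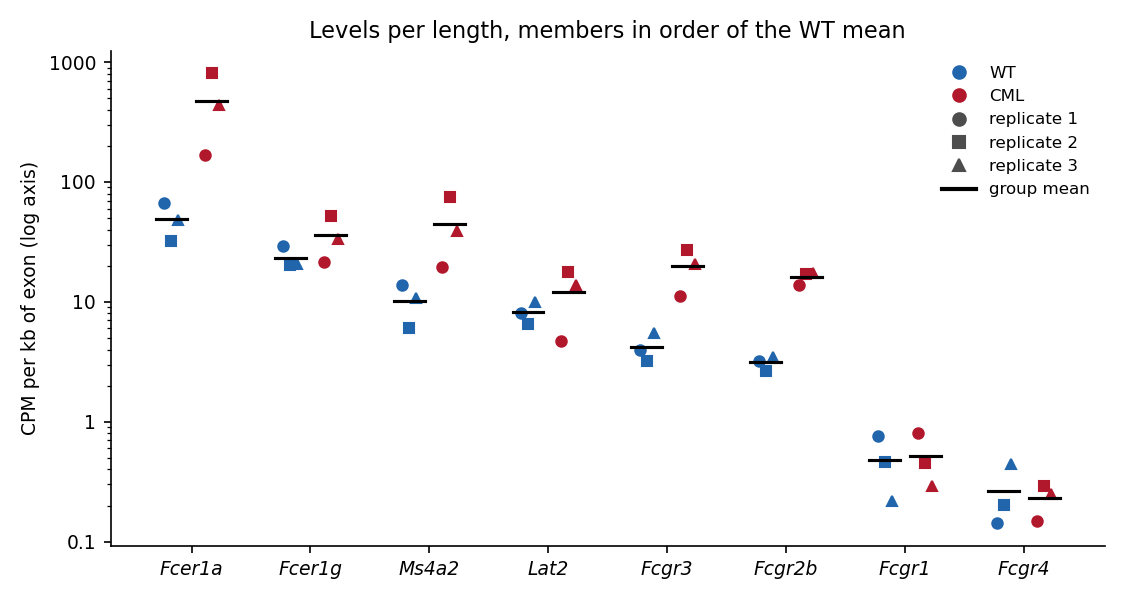
CPM per kb of exon (log axis) of the 8 members in WT and CML libraries, ordered by the WT mean, with a marker shape per replicate and a black line at the group mean. Fcer1a is the most abundant member per length in every library but has the widest CML range, and Fcgr1 and Fcgr4 stay under 1 CPM per kb.

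The genes around the receptors were read from lists of their pathway. The calls on each of these lists stand beside 10.2% of all tested genes higher in CML and 17.4% called in either direction. Among kinases and adaptors next to the receptors, 4 of 19 tested genes rose and 2 fell (median log2 fold change 0.23). Syk, the kinase that docks on phosphorylated ITAMs, rose from 48.4 ± 1.92 CPM in WT to 72.1 ± 1.96 CPM in CML (log2 fold change 0.58, SE 0.11, adjusted p = 0.00294, edgeR). Lcp2, which encodes the adaptor SLP-76, rose by 0.78 on the same scale, and Grap2, which encodes its partner Gads, by 3.89 to 2.55 ± 1.17 CPM. Pag1, a membrane adaptor that recruits the kinase Csk, had a log2 fold change of -0.67. Lyn, which phosphorylates the ITAMs and was named after its values were seen, averaged 147 ± 9.88 CPM in the CML libraries against 170 ± 11.8 CPM in the WT libraries and did not pass (adjusted p = 0.219, edgeR).

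In the lipid and calcium branch after the receptors, 9 of 24 tested genes rose and 1 fell (median 0.40). Prkcd, a protein kinase C gene, rose from 38.4 ± 5.33 to 97.5 ± 10.1 CPM (log2 fold change 1.34, SE 0.13), and Prkcb, of the same family, by 3.51 from 2.01 ± 0.49 CPM. Rasgrp1, an activator of Ras, rose by 2.58, and Nfatc1, a calcium-regulated transcription factor gene, had a log2 fold change of -0.78. With CML replicate 2, CML replicate 3 or WT replicate 2 left out, 5, 6 and 5 genes of this branch changed.

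On the list of inhibitors of Fc receptor signalling, 9 of 20 tested genes rose and 2 fell (median 0.54). Lilrb4a, an ITIM receptor, rose by 1.99 to 583 ± 239 CPM in CML. Lilr4b, its close relative, is known to lack the ITIM and so is no inhibitor of that kind, though it is among the 9. It rose by 2.40 to 477 ± 207 CPM, and reads of these similar genes may not be told apart. Cd300a, another ITIM receptor, rose by 0.87 and Dok2, an adaptor that damps Ras signalling, by 0.92. Inpp5d, which encodes SHIP1 and was named after its values were seen, averaged 58.8 ± 10.7 CPM in the CML libraries against 49.9 ± 2.25 CPM in the WT libraries and did not pass (adjusted p = 0.276, edgeR). The number of inhibitor genes that changed was 7 without WT replicate 1 and 6 without WT replicate 2.

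Receptors and adaptors of the ITAM kind moved both ways, with 4 of 10 tested genes higher and 2 lower (median 0.80). Clec4e and Clec4d, lectin receptors that signal through the gamma chain, fell by 2.46 and 1.37 on the log2 scale. Clec4e went from 547 ± 67.2 CPM in WT to 99.5 ± 9.58 CPM in CML. Cd79b, an ITAM chain of the B cell receptor, rose by 1.51, and Trem3, a receptor that pairs with the adaptor Tyrobp, by 1.47. Cd79a, the partner chain of Cd79b, had 3, 0 and 0 counts in CML replicates 1, 2 and 3 and 0, 0 and 2 in WT, too few to be tested. With CML replicate 3 left out Trem3 was past the threshold no longer (adjusted p = 0.0665, edgeR), nor with WT replicate 2 left out (0.105) or by the DESeq2 Wald test (0.0693). Without WT replicate 2 the genes that changed on this list numbered 3, of which 1 was higher.

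Of 4 tested Fc-binding receptors and relatives outside the family, 3 rose and 0 fell (median 1.77). Fcer2a, the low-affinity IgE receptor CD23, rose by 2.17 to 2.53 ± 0.60 CPM (SE 0.36, adjusted p = 0.00115, edgeR). Lgals3, a galectin that also binds IgE, rose by 4.56 from 1.20 ± 0.58 to 28.8 ± 16.5 CPM. Fcgrt, the neonatal IgG receptor, rose by 1.37, and missed the threshold without WT replicate 1 (adjusted p = 0.0561) or WT replicate 2 (0.0549).

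Of 17 tested genes of the granule fusion machinery, 5 rose and 1 fell (median 0.22). Stx11, a syntaxin, rose by 1.71 from 11.1 ± 0.96 to 36.4 ± 7.58 CPM. The small GTPase genes Rab27a, Rab27b and Rab37 rose by 0.76, 0.82 and 0.56.

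Of 13 tested transcription factors known at FceRI genes or in mast cells, 4 rose and 0 fell (median 0.13). Gata1 rose by 2.39 (SE 0.48, adjusted p = 0.0209, edgeR), Mitf by 1.37, Runx1 by 0.61 and Spi1, which encodes PU.1, by 0.43. Gata1 was at 13.6, 47.8 and 29.7 CPM in CML replicates 1, 2 and 3 and at 4.42 to 6.60 CPM in WT. The calls on this list numbered 2 with CML replicate 3 left out, 1 with WT replicate 1 or 2 left out, 2 with WT replicate 3 left out and 2 with no filter on low counts. Runx1 passed with each library left out. Gata1 was no longer called with CML replicate 3 left out (adjusted p = 0.0635, edgeR) or with WT replicate 1, 2 or 3 left out (0.153, 0.105 and 0.0648), nor was Mitf without WT replicates 1, 2 and 3 (0.0867, 0.0701 and 0.0713). Spi1 missed the threshold without CML replicates 1, 2 and 3 (0.0675, 0.143 and 0.110) and without WT replicates 1 and 2 (0.170 and 0.216). It also missed with DESeq2 size factors (0.0504), with no filter on low counts (0.0604) and by the DESeq2 Wald test (0.0644). Gata1 was also not called with no filter on low counts (0.0878) or with the replicate number as a block (0.0618).

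**Figure D5:**
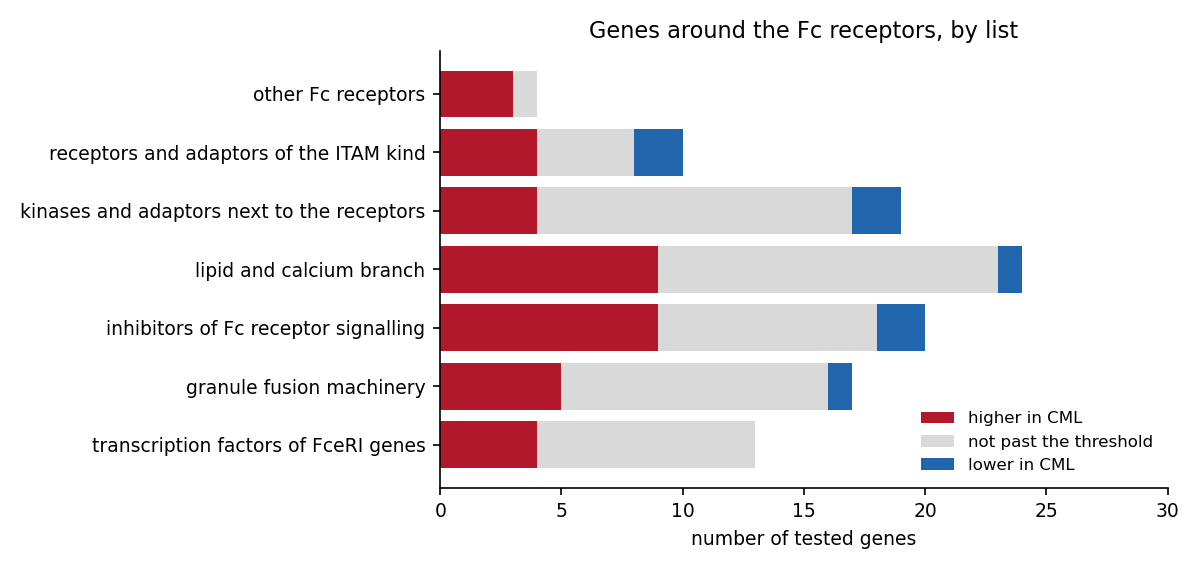
Number of tested genes in each of the 7 pathway lists that were higher in CML (red), lower (blue) or not past the threshold (grey). The inhibitor list and the lipid and calcium branch each hold 9 genes that rose, and ITAM receptors, kinases and inhibitors each hold 2 that fell.

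The genes whose pattern over the 6 libraries was most like that of a member were found by the root mean square difference of log2 CPM, each gene centred on its own mean. Before the log, 2 counts scaled to library size were added, which makes differences smaller in genes with few counts. Nearest to Fcer1a were Ccl2 (difference 0.17), Ces2g (0.23) and Grm6 (0.24). Grm6 had only 3, 1 and 1 counts in WT replicates 1, 2 and 3. Its log2 fold change by edgeR was 4.55, against 3.26 for Fcer1a, so its closeness depends on the added counts. Nearest to Ms4a2 were P2ry10 (0.09), Alox5 (0.15) and Gpr34 (0.15). For Fcer1g they were Gm37702 (0.08), Ly96 (0.13) and Gm19154 (0.13), and for Fcgr3 they were Tmod2 (0.11), Padi2 (0.16) and Cntnap1 (0.17). Ccl2, a chemokine gene, was at 2.01, 10.9 and 6.20 CPM in CML replicates 1, 2 and 3 and at 0.597, 0.316 and 0.623 CPM in WT. Alox5, the enzyme that starts leukotriene synthesis, was at 28.6, 118 and 73.0 CPM in CML and at 20.5, 9.34 and 20.2 CPM in WT.

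The annotated genes that overlap a member or lie within 100 kb of it numbered 92, of which 29 were tested, 3 rose and 2 fell. These 5 of 29 are close to the 17.4% called among all tested genes, so the called neighbours are given as values only. Olfr1404, an olfactory receptor gene, ends 2701 bases beyond the 3′ end of Fcer1a on the opposite strand (173212392 to 173218583). It was at 0.816, 2.7 and 1.5 CPM in CML replicates 1, 2 and 3 and at 0.418, 0.126 and 0.249 CPM in WT. Its log2 fold change was 2.60 with an SE of 0.55 (adjusted p = 0.00625, edgeR). Near Ms4a2, its relatives Ms4a6b and Ms4a6d rose by 1.15 and 2.84, while Ms4a3, 5777 bases away, did not pass (log2 fold change 0.34, adjusted p = 0.242). Near Fcgr1, the unnamed transcripts Gm20634 and Gm20628 had log2 fold changes of -1.60 and -0.49, and the latter missed the threshold with any of 5 libraries left out. Gm20634 overlaps the histone gene Hist2h3c1 on the same strand, and Gm20628 overlaps Hist2h3b on the opposite strand. Neither histone gene was found in the deposited table by symbol, so reads of these genes and transcripts may not be told apart. Around the Fcgr2b, Fcgr4, Fcgr3 and Fcer1g stretch of chromosome 1, no tested gene outside the family passed.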

How the data were processed

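Per the labels, RNA of 6 libraries was isolated with a column kit and prepared with a transposase-based kit. The values the authors deposited are estimated counts for each gene, not scaled to a common total. The submitters' processing notes name STAR 2.7.3a, Partek 8.0 and mm10, without their roles. The sources used here give no annotation, strand setting or treatment of shared reads.

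The estimated counts were rounded to whole numbers. Genes were filtered with filterByExpr (minimum count 10) and tested with the edgeR 4.0.16 quasi-likelihood F test in R 4.3.3, with TMM scaling and group as the only term, two-sided, at a Benjamini-Hochberg adjusted p under 0.05 over all tested genes. The standard error of a fold change is its size over the square root of F. The steps were tested on simulated data. Ratios were formed per library from counts with 0.5 added to each.

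Alternatives were DESeq2 1.42.0, other scalings and filters, a replicate block and each library left out. Named from each list were up to 4 called genes with the lowest adjusted p, or without calls the lowest p, and only the genes that bear on the receptors are described. Members and lists were chosen with earlier results of these data known. Symbols were matched exactly to GENCODE M21 on GRCm38, the assembly of mm10 (28951 of 29872). Promoter sequences are from RefSeq on GRCm38.p6. Protein sequences were not analysed here. Listed genes whose symbols did not match the table (5) were not analysed here.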

Additional observations from a re-analysis of the deposited data

How the results depend on the processing

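Of the 7 tested members, 6 kept their direction under all 12 alternatives tried. The exception was Fcgr1, with a log2 fold change of -0.39 without CML replicate 1 and -0.25 without WT replicate 3, and from -0.39 to 0.59 over the libraries left out. Leaving out 1 library at a time, between 1 and 6 members changed (1 without WT replicate 1, 6 without CML replicate 1), and between 1466 and 4122 genes of all tested. The difference in mean log2 ratio of Fcgr3 to Fcgr2b, CML minus WT, ran from -0.44 to 0.058, its value without CML replicate 1. For the other ratios this difference kept its sign with each library left out and with 5 counts added in place of 0.5.

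Same-numbered libraries did not deviate together (correlations of -0.02, -0.05 and 0.01 for replicates 1, 2 and 3). With 3 libraries per group, this cannot show whether same-numbered samples were handled together. With the replicate number as a block, 2 members changed, Fcgr3 and Fcgr2b, and 2807 genes. Fcer1a then had a log2 fold change of 3.06 (adjusted p = 0.216, edgeR). With no filter on low counts 2 members changed, with the DESeq2 Wald test 4, and with DESeq2 size factors, library totals or a mean of at least 50 counts 3. For the other 63 genes carried through the alternatives, none changed sign. The depth limits Fcgr1 and Fcgr4 most, since a library held at most 33 and 9 counts of them.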
